A study of Mus musculus with 14 samples.

Results

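Chemokines and their receptors were examined in bulk RNA-seq of mouse plexiform neurofibromas (PNs), benign tumors of the nerve. The members are every gene in the count table whose symbol begins with Ccl, Cxcl, Ccr, Cxcr, or Ackr followed by a number, together with *Cx3cl1* and *Cx3cr1*, which gave 60 of 24062 genes. They comprise 38 ligands (24 CC, 13 CXC, and 1 CX3C) and 22 receptors (11 CC, 6 CXC, 1 CX3C, and 4 atypical). The tissue came from 14 libraries: 3 controls (the libraries DRG3, DRG4, and DRG5), 5 slow-growing PNs (1079, 1198A, 1202, 1203, and 1206), and 6 fast-growing PNs (1053, 1071, 1179, 1191, 1214, and 1216). The labels do not say that each control came from its own animal, and p-values measure the spread between these libraries. Controls were dorsal root ganglia with nerve roots and proximal nerve trunks of Nf1fl/fl mice, which carry the floxed alleles without Cre. PNs were from DhhCre;Nf1fl/fl mice, in which the *Dhh* promoter drives Cre in the Schwann cell lineage, so that the other cells of the tumor keep *Nf1*. All mice were on a mixed C57BL/6, I-129, and FVBN background, and the study's methods describe the DhhCre;Nf1fl/fl mice as largely C57BL/6. All were given no drug and were collected at 9 months by the methods (7 months in 1 figure legend). The sex of each animal was not given. PNs were classed by volumetric MRI at 7 and 9 months: the volume of slow-growing PNs changed by less than 5 mm3 and that of fast-growing PNs grew by more than 35 mm3.

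Chemokines are small secreted proteins that guide migrating cells through receptors coupled to inhibitory G proteins. CC ligands such as *Ccl2* draw monocytes and other myeloid cells, several CXC ligands draw lymphocytes or neutrophils, and *Cxcl12* holds many cell types in stromal niches. Most inflammatory ligands bind several receptors, while the homeostatic ones, which organize lymphoid tissue, tend to use 1. The atypical receptors (*Ackr1* to *Ackr4*) bind chemokines without G protein signaling and remove, store, or transport them. Macrophages are abundant immune cells of PNs, and the receptors *Ccr1*, *Ccr2*, and *Cx3cr1* are found on such cells and on the monocytes they come from.

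Libraries held 9596773 to 17594164 counts on genes, and members took from 0.0288% (1203) to 0.163% (1191) of them. Levels are CPM, counts scaled to library size with TMM factors, and 3 counts, used as the floor, were worth 0.167 to 0.313 CPM. *Nf1* itself, counted over the whole gene, stood at 129 to 227 CPM in controls and 225 to 294 CPM in PNs, and a deletion limited to 1 lineage of a mixed tissue cannot check the labels this way. Marker genes were summed as a check of the tissue. Schwann cell markers were present in every library (2328 to 11554 CPM), while neuron markers, at 1744 to 15173 CPM elsewhere, stood at 35.9 CPM in 1191. Controls carried more fat marker RNA (3637 to 4748 CPM) than any PN (23.6 to 1916 CPM), and so it was for skeletal muscle markers (3953 to 15872 CPM in controls and 21.5 to 3774 CPM in PNs). B cell markers summed to 320 and 357 CPM in DRG4 and DRG5 but 10.4 CPM in DRG3. In bulk tissue, fewer cells of a type and less RNA per cell cannot be told apart.

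Of the 60 members, *Ccl21a*, *Ccl21b*, *Ccl21c*, and *Ccl27b* had 0 counts in every library. Each has near-identical copies in the mouse genome, and how reads that map to several places were counted is not given in the sources used here. They are among 15 members that the filter on low counts kept out of every comparison. The others were *Ccl1*, *Ccl4*, *Ccl20*, *Ccl26*, *Cxcl2*, *Cxcl3*, *Cxcl17*, *Cxcr1*, *Ccr1l1*, *Ccr3*, and *Ccr8*, none of them above the 2.19 CPM of *Ccr3* in 1191. Neutrophil ligands stayed low: *Cxcl1*, which binds *Cxcr2*, peaked at 1.98 CPM in DRG5, and *Cxcl2* peaked at 0.512 CPM in 1179. *Cxcl5* peaked at 2.04 CPM in 1191, and 8 of the 11 PNs stood above all controls, although no test below called it. Per kilobase of transcript, the scale on which genes are compared with each other, the highest mean levels over all libraries were those of *Ccl11* (136 CPM per kb), *Ackr1* (59.1), *Ccl8* (27.7), *Ccl5* (19.5), and *Ccl9* (17.5). DRG4 set the places of *Ccl8* and *Ccl5*: without it their means were 9.29 and 6.32 CPM per kb. Exons of 9 members (*Cxcl16*, *Ccl27a*, *Cxcl10*, *Cxcl11*, *Ccl25*, *Cxcr5*, *Ackr4*, *Cx3cr1*, and *Ccr9*) overlap a gene on the opposite strand, and those of *Ackr1* and *Ccr9* overlap 1 on the same strand. The strand setting of the counting is not given in the sources used here, so reads of pairs on opposite strands may not be told apart. For the pairs on the same strand (*Ackr1* with *Cadm3* and *Ccr9* with *Gm17200*), no strand setting tells apart reads of shared exons. The order per kilobase differed by group. *Ccl11*, the eosinophil attractant eotaxin that fibroblasts also make, stood at 47.2, 88.6, and 221 CPM per kb in the control, slow-growing, and fast-growing groups, whereas *Ccl5* stood at 82.7, 1.16, and 3.26 CPM per kb and *Ccl8* at 110, 1.41, and 8.52 CPM per kb.

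Summed over all members, controls had 529, 1169, and 933 CPM (mean 877 ± 324, SD, n = 3), slow-growing PNs had 511, 752, 505, 315, and 465 CPM (510 ± 157, n = 5), and fast-growing PNs ran from 602 through a median of 766 to 1501 CPM (908 ± 363, n = 6). Controls overlapped with both PN groups on this sum. What filled it differed, with members ranked here by their CPM in the sum and not per kilobase. *Ccl11* was the highest member in all 6 fast-growing PNs, where it made 21.5% to 32.8% of the sum, and in the slow-growing PN 1198A (32.6%). In the other libraries the highest member by CPM was *Ackr1* (DRG3, 1202, and 1203), *Cxcl12* (DRG4, DRG5, and 1206), or *Ccr9* (1079).

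Differences were tested with the quasi-likelihood test of edgeR, adjusted by Benjamini-Hochberg over all genes tested, and a gene was called at an adjusted p under 0.05. In all 11 PNs versus controls, 15 of 45 tested members were called, 4 higher and 11 lower, which is 33.3%, against 26.3% of all genes tested (12.9% higher and 13.4% lower). In fast-growing PNs versus controls, 14 of 45 were called, 8 higher and 6 lower, which is 31.1% against 31.4% of all genes (14.8% higher and 16.7% lower). In slow-growing PNs versus controls, 5 of 41 were called, all lower, which is 12.2% against 11.3% (4.12% higher and 7.13% lower). Between fast- and slow-growing PNs, 1 of 36 was called, higher in fast-growing PNs, which is 2.78% against 1.27% (0.802% higher and 0.466% lower), and 18 had an unadjusted p under 0.05, against 20.4% of all genes. At that threshold the comparisons with controls gave 21 of 45 members in all PNs (against 38.9% of all genes), 24 of 45 in fast-growing PNs (41.8%), and 16 of 41 in slow-growing PNs (30.3%). The adjusted member shares were thus close to the background in the comparisons of either growth class with controls. The median log2 fold change over tested members was -0.13, -0.45, -0.77, and 0.94 in these 4 comparisons in the order given, and 0.10, 0.02, 0.04, and -0.03 over all genes. The 3 comparisons with controls share the same 3 control libraries.

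**Figure D1:**
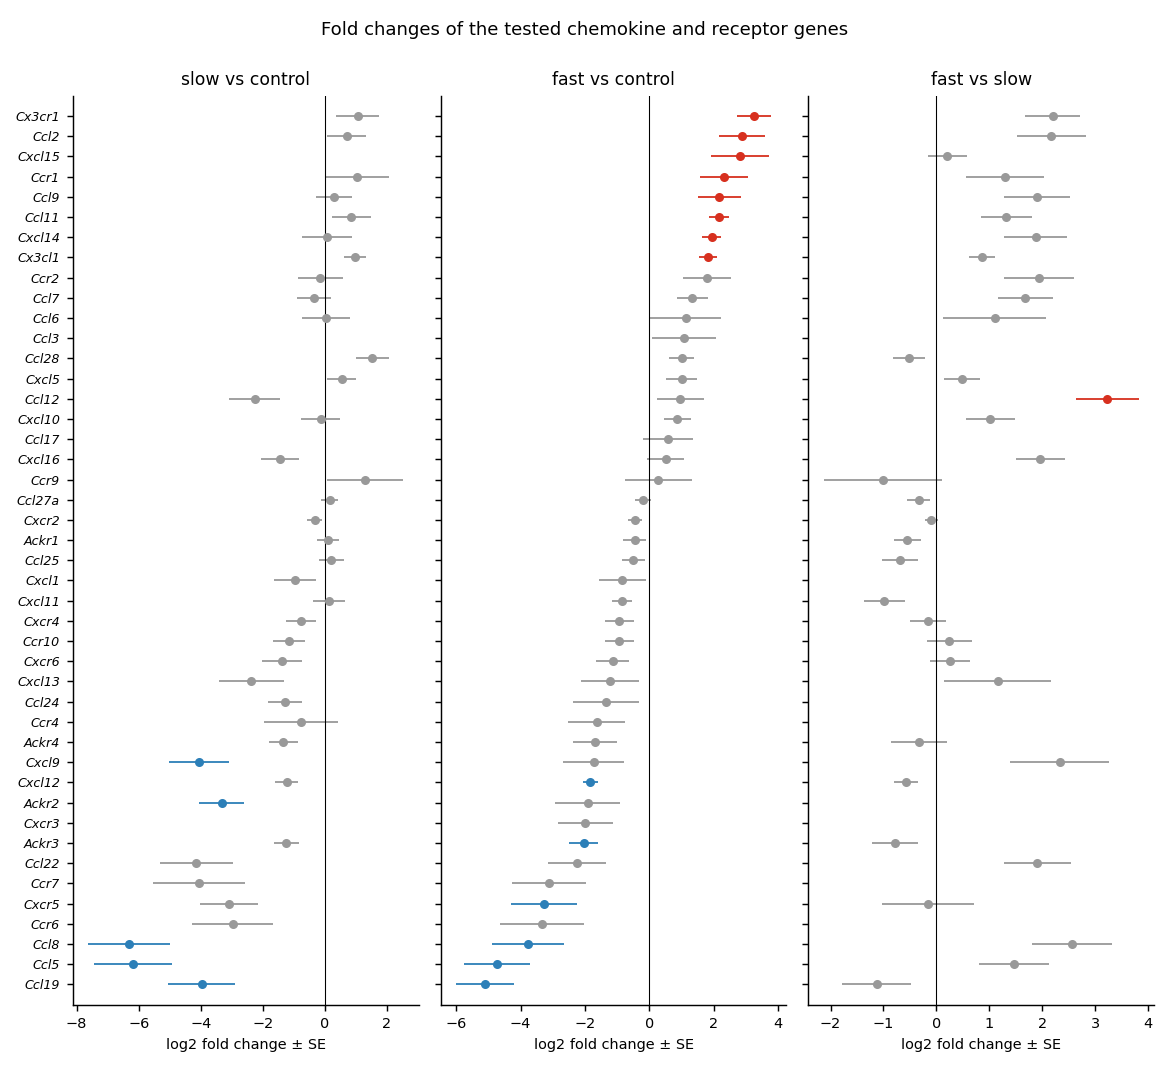
Log2 fold change (x axis) of 44 of the 45 tested members (rows) for slow-growing PNs versus controls, fast-growing PNs versus controls, and fast- versus slow-growing PNs, one panel each. Points are edgeR estimates, bars are ± 1 SE, red marks members called higher, blue members called lower, and grey the rest. In the panel of fast- versus slow-growing PNs only *Ccl12* is colored, although more members lie above 0 than below.

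The number of calls depended on the control libraries. Without DRG3, the counts were 16 (3 higher, 13 lower) in all PNs, 20 (7 higher, 13 lower) in fast-growing PNs, and 15 (2 higher, 13 lower) in slow-growing PNs. Without DRG4 they were 4, 8, and 1, and without DRG5 they were 4, 9, and 2. Calls over all genes also fell, to 14.9%, 22%, and 4.27% without DRG4 and 12.5%, 20.4%, and 3.74% without DRG5, and stood at 25.7%, 31.9%, and 15.3% without DRG3. With both DRG4 and DRG5 left out, only 1 control remained, assumed to vary like the PNs, and 0, 3, and 0 members were called (3, 16, and 3 at an unadjusted p under 0.05), the 3 being *Cxcl12*, *Cxcl14*, and *Cx3cr1*, against 3.7%, 9.3%, and 0.0243% of all genes (15.6%, 26.7%, and 9.16% unadjusted). With mean log levels of skeletal muscle and fat markers as covariates, 1, 0, and 0 members were called by edgeR (9, 4, and 2 at an unadjusted p under 0.05), and so were 285, 0, and 0 of all genes (16.9%, 6.7%, and 4.62% unadjusted). The 1 member was *Cxcr3* (adjusted p = 0.0336), and every other call of a member against controls ended in that fit. Since fat and skeletal muscle markers each separated every control from every PN, tissue composition and genotype cannot be told apart for these calls.

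The 8 members called higher in fast-growing PNs against controls were *Ccl2*, *Ccl9*, *Ccl11*, *Cxcl14*, *Cxcl15*, *Cx3cl1*, *Cx3cr1*, and *Ccr1*, and for each of them all 6 fast-growing PNs exceeded all 3 controls. Fast-growing PNs and controls did not overlap for 11 of 45 members, against 32.7% of all genes tested: these 8 in the higher direction, against 17.8%, and 3 (*Cxcl12*, *Cxcl11*, and *Ackr3*) in the lower direction, against 14.9%. Among them, *Ccl2*, *Ccl9*, *Cx3cr1*, and *Ccr1* belong to the traffic of monocytes and macrophages. Other members with such a role were not called higher: *Ccl8* was called lower in fast-growing PNs, and *Ccl6*, *Ccl7*, *Ccl12*, and *Ccr2* were called in neither direction.

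**Figure D2:**
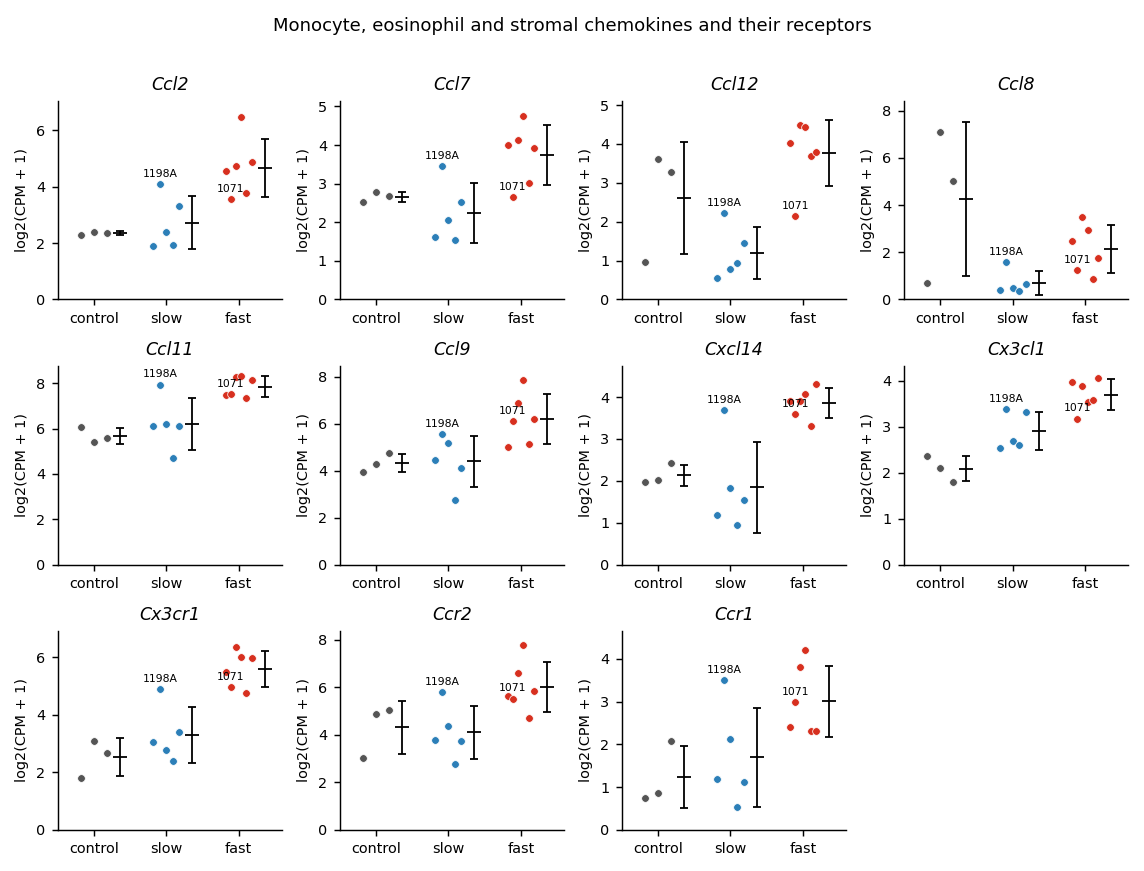
Levels of 11 ligands and receptors of myeloid cells and eosinophils, as log2(CPM + 1) on the y axis, in controls (n = 3), slow-growing PNs (n = 5), and fast-growing PNs (n = 6). Points are libraries, bars are the mean ± SD of the log values, and the slow-growing PN 1198A and the fast-growing PN 1071 are labelled. In most panels 1198A lies beside the fast-growing PNs, apart from the other slow-growing PNs.

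Promoters are shown for the ligands *Ccl9* and *Cxcl14*, called here, and for *Ccl12*, called between fast- and slow-growing PNs, as examples of the sequence before the start of such genes. They are the 250 bases before the RefSeq gene start on the gene's strand, 5′ to 3′ (GRCm38.p6), with motif matches in capitals:

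Ccl12, chr11:82101595-82101844, plus strand: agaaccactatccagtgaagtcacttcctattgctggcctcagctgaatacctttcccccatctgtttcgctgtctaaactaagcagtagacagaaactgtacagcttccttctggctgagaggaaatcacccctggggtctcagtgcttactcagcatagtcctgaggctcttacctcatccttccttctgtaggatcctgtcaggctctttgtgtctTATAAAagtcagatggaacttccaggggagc

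Ccl9, chr11:83578637-83578886, minus strand: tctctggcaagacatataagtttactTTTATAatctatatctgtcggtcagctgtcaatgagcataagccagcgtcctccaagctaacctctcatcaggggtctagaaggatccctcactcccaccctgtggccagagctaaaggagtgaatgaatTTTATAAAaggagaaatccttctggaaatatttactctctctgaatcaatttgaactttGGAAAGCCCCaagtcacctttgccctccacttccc

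Cxcl14, chr13:56296552-56296801, minus strand: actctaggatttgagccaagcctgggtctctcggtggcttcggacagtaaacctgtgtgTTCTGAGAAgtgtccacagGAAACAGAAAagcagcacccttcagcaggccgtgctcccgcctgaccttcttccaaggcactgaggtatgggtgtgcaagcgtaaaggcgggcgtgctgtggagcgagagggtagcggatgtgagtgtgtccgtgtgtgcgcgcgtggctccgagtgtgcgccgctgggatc

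In *Ccl12* the capitals mark a TATAAA match from 31 to 26 bases before the start. In *Ccl9* they mark TATAAA matches, the first of them on the opposite strand from 224 to 219 and then an overlapping pair on both strands from 94 to 87, and a kappa B match (GGG, any 2 bases, then TTTCC) on the opposite strand from 35 to 26. In *Cxcl14* they mark the gamma-activated sequence TTCNNNGAA from 191 to 183 and an interferon-stimulated response element (GAAA, any 2 bases, then GAAA) from 172 to 163. These 4 motifs were searched on both strands in such windows of 44 members and of 32851 starts in all. TATAAA was found in 31.8% of the member windows and 12.4% of all windows, the kappa B motif in 13.6% and 1.41%, TTCNNNGAA in 9.09% and 7.02%, and the interferon-stimulated response element in 6.82% and 2.98%. The 6 members with a kappa B match were *Ccl20*, *Ccl9*, *Ccr3*, *Cxcl1*, *Cxcl2*, and *Cxcl3*. The filter on low counts kept *Ccl20*, *Ccr3*, *Cxcl2*, and *Cxcl3* out of every comparison, and of the other two *Ccl9* was called and *Cxcl1* was not. Neighboring chemokine genes share sequence by duplication, so these windows are not independent, and a match of letters does not show that a factor binds there.

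*Ccl11* measured 65.3, 41.1, and 46.7 CPM in DRG3, DRG4, and DRG5, 68.0, 245, 72.6, 25.0, and 68.7 CPM in 1079, 1198A, 1202, 1203, and 1206, and 160 to 322 CPM, with a median of 234, in fast-growing PNs. All PNs except 1203 stood above the highest control, with 1079, 1202, and 1206 less than 10 CPM above it and 1198A within the range of the fast-growing PNs. The log2 fold change in fast-growing PNs versus controls was 2.17 ± 0.31 (SE; edgeR, Benjamini-Hochberg adjusted p = 0.000861). Its receptor on eosinophils, *Ccr3*, stayed at or below 2.19 CPM in every library. *Ccl2*, the main monocyte attractant, measured 3.86, 4.31, and 4.17 CPM in controls, 2.73, 16.0, 4.19, 2.84, and 8.87 CPM in slow-growing PNs, and 10.7 to 88.4 CPM, with a median of 24.1, in fast-growing PNs. The controls were tightly spaced (4.11 ± 0.229 CPM, SD), and the fast-growing PNs were not (31.3 ± 28.8 CPM, highest in 1191). *Ccl2* rose by 2.87 ± 0.72 on the log2 scale in fast-growing PNs (edgeR, adjusted p = 0.0142), a call that was lost without DRG4 (adjusted p = 0.0544) or DRG5 (0.0524). *Ccl7*, its neighbor and a ligand of the same receptor, stood at 4.72, 5.86, and 5.42 CPM in controls and 5.26 to 26.0 CPM in fast-growing PNs and was not called (log2 fold change 1.33 ± 0.49, edgeR adjusted p = 0.0633). It was called without 1071 (1.51, edgeR adjusted p = 0.0188) or without 1214 (1.47, 0.0438).

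The receptor of both, *Ccr2*, which brings monocytes out of the bone marrow, measured 7.20, 28.6, and 31.6 CPM in controls, 12.8, 54.9, 19.8, 5.86, and 12.2 CPM in slow-growing PNs, and 25.5 to 217 CPM, with a median of 52.6, in fast-growing PNs. The highest control lay above the lowest fast-growing PN, and *Ccr2* was not called (1.78 ± 0.75, edgeR adjusted p = 0.102). *Ccr1*, a receptor of *Ccl9* on myeloid cells, measured 0.686, 0.825, and 3.23 CPM in controls, 1.29, 10.4, 3.37, 0.458, and 1.16 CPM in slow-growing PNs, and 3.93 to 17.5 CPM, with a median of 5.59, in fast-growing PNs. *Ccr1* rose by 2.32 ± 0.75 on the log2 scale in fast-growing PNs (edgeR, adjusted p = 0.0417), and the call was lost without DRG3 (0.114), DRG4 (0.146), 1071 (0.0531), 1179 (0.0618), or 1191 (0.0536). *Ccl9*, the ligand with the kappa B match and a myeloid cell attractant that mice have and humans lack, measured 14.5, 18.5, and 25.6 CPM in controls, 20.8, 45.9, 35.2, 5.68, and 16.2 CPM in slow-growing PNs, and 31.3 to 231 CPM, with a median of 70.2, in fast-growing PNs. *Ccl9* rose by 2.17 ± 0.67 (edgeR, adjusted p = 0.0347), a call lost without DRG3 (0.0973), DRG4 (0.11), DRG5 (0.0695), or 1179 (0.0517). Its neighbor *Ccl6* stood at 2.6 to 84.7 CPM in fast-growing PNs and at 6.77, 7.97, and 10.4 CPM in controls. For both *Ccl9* and *Ccl6* the highest library was 1191, which was also the highest for *Ccl2* and *Ccr2*.

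The fractalkine pair was called on both sides. *Cx3cl1* encodes fractalkine, a membrane-bound ligand of neurons, endothelium, and other cells, and *Cx3cr1* encodes its receptor on resident macrophages and monocytes. *Cx3cl1* measured 4.12, 3.30, and 2.50 CPM in controls, 4.78, 9.39, 5.41, 5.04, and 9.06 CPM in slow-growing PNs, and 8.05 to 15.7 CPM, with a median of 12.4, in fast-growing PNs, so that all 11 PNs exceeded all controls. In the higher direction this separation held for 2 of 45 members, *Cx3cl1* and *Cxcl15*, against 8.51% of all genes. The log2 fold change of *Cx3cl1* was 1.54 ± 0.39 in all PNs (edgeR, Benjamini-Hochberg adjusted p = 0.0108), 1.83 ± 0.28 in fast-growing PNs (0.00113), and 0.97 ± 0.35 in slow-growing PNs (0.109, not called). The call in all PNs was lost without DRG4 (0.0503) or DRG5 (0.073). *Cx3cr1* measured 2.49, 7.61, and 5.32 CPM in controls, 7.29, 28.8, 5.82, 4.21, and 9.64 CPM in slow-growing PNs, and 26.2 to 81.8 CPM, with a median of 53.3, in fast-growing PNs. The fast-growing PNs cleared every control, and 1198A was the slow-growing PN within their range. *Cx3cr1* rose by 3.25 ± 0.52 in fast-growing PNs (edgeR, adjusted p = 0.00144) and by 2.67 ± 0.94 in all PNs (0.0487), where 10 of the 14 fits that left out 1 library lost the call (adjusted p up to 0.156, without DRG5). With muscle and fat scores as covariates, the log2 fold changes in all PNs turned to -0.054 for *Cx3cl1* and -1.001 for *Cx3cr1* (edgeR, adjusted p = 0.955 and 0.681). The sign of *Cx3cl1* also turned in fast-growing PNs.

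*Cxcl14*, a CXC ligand made by fibroblasts and epithelium, measured 2.92, 3.02, and 4.38 CPM in controls, 1.29, 11.9, 2.55, 0.916, and 1.93 CPM in slow-growing PNs, and 8.98 to 19.0 CPM, with a median of 14, in fast-growing PNs. Apart from 1198A, every slow-growing PN lay below every control, and all fast-growing PNs lay above them. *Cxcl14* rose by 1.94 ± 0.30 in fast-growing PNs (edgeR, adjusted p = 0.00121). *Cxcl15*, a ligand known mainly from lung epithelium, was called higher in all PNs and in fast-growing PNs from levels near the floor: 0.343, 0, and 0 CPM in controls and 0.439 to 1.34 CPM in PNs. A count of 0 allows up to 0.275 CPM in DRG4 and 0.313 CPM in DRG5, so its fitted log2 fold changes, 2.77 ± 0.76 and 2.81 ± 0.89 (edgeR, adjusted p = 0.016 and 0.0376), rest on few counts. Without DRG4 or DRG5 it was called in neither (0.0747 and 0.0805 in all PNs, 0.117 and 0.117 in fast-growing PNs), and in fast-growing PNs also not without 1053 (0.064), 1071 (0.0565), or 1214 (0.0643). Without DRG3 the remaining controls had 0 counts of *Cxcl15*. Its fitted log2 fold change in all PNs was then 6.52, which is no measure of size.

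Of the 8 members called higher, *Ccl11*, *Cxcl14*, *Cx3cl1*, and *Cx3cr1* were called in each of the 9 fits that left out 1 library. With voom in limma, *Ccl2* (adjusted p = 0.0906), *Ccl9* (0.0666), and *Ccr1* (0.103) were not called in fast-growing PNs, nor was *Cx3cr1* in all PNs (0.229). With lymphocyte markers as a covariate, *Cx3cl1* (0.0599) and *Cx3cr1* (0.0635) were not called in all PNs, nor *Cxcl15* in fast-growing PNs (0.0595). Marker genes of other cells were summed beside them. The macrophage list summed to 208, 646, and 508 CPM in controls and 251, 638, 225, 80.4, and 238 CPM in slow-growing PNs. In fast-growing PNs it stood at 357 to 861 CPM, which overlapped the controls. There 2 of its 9 tested genes were called higher, against 14.8% of all genes, with a median log2 fold change of 0.38. The fibroblast list summed to 5451, 2633, and 3028 CPM in controls, 5782, 11559, 5514, 2149, and 5920 CPM in slow-growing PNs, and 9829 to 19144 CPM in fast-growing PNs, with 8 of 10 genes called higher. In both lists 1198A was the highest slow-growing PN. In all PNs, 1 fibroblast gene was called higher and 1 lower. Of 10 Schwann cell genes, 6 were called higher in fast-growing PNs (median log2 fold change 1.64) and 6 in all PNs (1.60), against 14.8% and 12.9% of all genes. The part of these cells in the member differences was not tested.

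The 11 members called lower in all PNs were *Ccl5*, *Ccl8*, *Ccl19*, *Ccl22*, *Cxcl12*, *Ccr6*, *Ccr7*, *Cxcr3*, *Cxcr5*, *Ackr3*, and *Ackr4*. Ligands and receptors of lymphocytes and dendritic cells are described together here, a grouping made after their values were seen. Of these, *Ccr4*, *Ccr9*, *Cxcl9*, *Cxcl10*, *Cxcl11*, *Cxcl13*, *Cxcr6*, *Ccl17*, and *Ccl25* were tested and not called in all PNs. *Ccl19*, which with *Ccr7* guides T cells and dendritic cells into lymph nodes, measured 1.97, 95.8, and 44.0 CPM in DRG3, DRG4, and DRG5, 1.06, 0.977, 1.84, 9.43, and 2.70 CPM in slow-growing PNs, and 0.546 to 2.80 CPM, with a median of 1.08, in fast-growing PNs. DRG4 and DRG5 stood far above every PN, and DRG3 lay among the PNs. *Ccl19* was called lower in all PNs (log2 fold change -4.42 ± 0.76, edgeR, Benjamini-Hochberg adjusted p = 0.000757), in fast-growing PNs (-5.10 ± 0.90, 0.00249), and in slow-growing PNs (-3.98 ± 1.08, 0.0489). Without DRG4 its log2 fold change in all PNs was -3.38 (edgeR, adjusted p = 0.0144). Its receptor *Ccr7* measured 0, 19.5, and 12.8 CPM in controls and 0 to 2.78 CPM in PNs, and fell by 3.41 ± 1.02 in all PNs (edgeR, adjusted p = 0.024). The 0 of DRG3 allows up to 0.257 CPM.

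**Figure D3:**
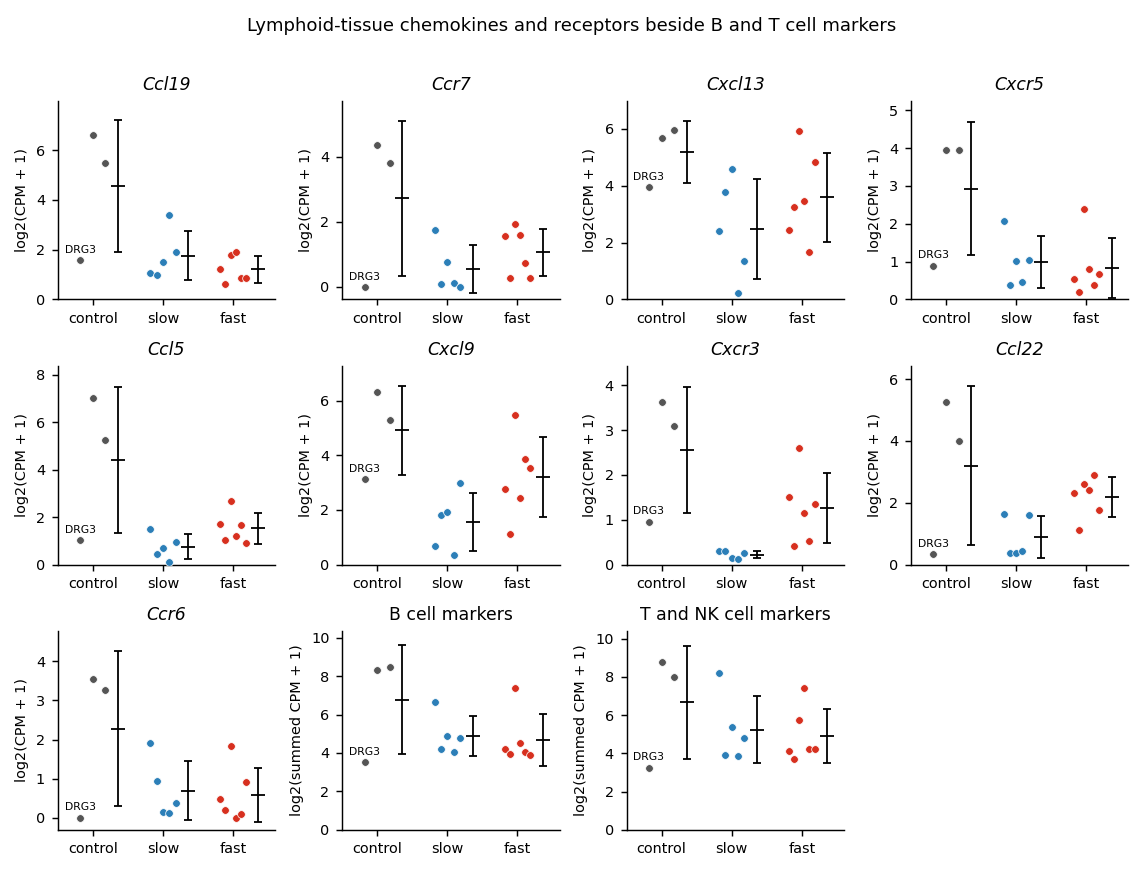
Levels of 9 ligands and receptors of lymphocytes and dendritic cells and the summed markers of B cells and of T and NK cells, as log2(CPM + 1) on the y axis, in controls (n = 3), slow-growing PNs (n = 5), and fast-growing PNs (n = 6). Points are libraries, bars are the mean ± SD of the log values, and the control DRG3 is labelled. DRG3 lies with the PNs in most panels, apart from DRG4 and DRG5.

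*Ccl5*, which T and NK cells secrete to draw other leukocytes, measured 1.03, 128, and 36.9 CPM in controls, 1.82, 0.376, 0.613, 0.0916, and 0.964 CPM in slow-growing PNs, and 0.874 to 5.48 CPM in fast-growing PNs. It was called lower in all PNs (-5.16 ± 0.81, edgeR adjusted p = 0.000426), fast-growing PNs (-4.74 ± 1.02, 0.00661), and slow-growing PNs (-6.19 ± 1.25, 0.017). Without DRG4 the log2 fold change of *Ccl5* in all PNs was -3.62 (edgeR, adjusted p = 0.0128). *Ccl8*, a monocyte attractant, measured 0.600, 137, and 31.4 CPM in controls, 0.304, 2.03, 0.409, 0.275, and 0.578 CPM in slow-growing PNs, and 0.816 to 10.2 CPM, with a median of 3.52, in fast-growing PNs. The level in DRG3 lay below all 6 fast-growing PNs and that in DRG4 was the highest of all libraries. *Ccl8* was called lower in all 3 comparisons with controls (-4.37 ± 0.98, -3.76 ± 1.12, and -6.30 ± 1.32 in all, fast-growing, and slow-growing PNs, edgeR adjusted p = 0.00484, 0.0293, and 0.0202). *Ccl22*, a dendritic cell ligand for *Ccr4*, measured 0.257, 37.3, and 15.1 CPM in controls and 0.301 to 6.38 CPM in PNs (-2.77 ± 0.86 in all PNs, adjusted p = 0.028). *Ccr4* itself ran from 0.102 to 5.85 CPM, the latter in 1079, and was 4.86 CPM in DRG4. *Ccl17*, its other dendritic cell ligand, ran from 0.102 to 2.04 CPM, with a log2 fold change of 0.025 ± 0.82 in all PNs (adjusted p = 0.985).

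*Cxcr5*, which takes B cells into follicles along *Cxcl13*, measured 0.858, 14.5, and 14.4 CPM in controls, 3.19, 0.301, 1.02, 0.366, and 1.06 CPM in slow-growing PNs, and 0.137 to 4.24 CPM in fast-growing PNs. It fell by 3.14 ± 0.80 in all PNs and by 3.27 ± 1.02 in fast-growing PNs (edgeR, adjusted p = 0.0105 and 0.0357). *Cxcl13* measured 14.3, 49.7, and 60.5 CPM in controls, 0.183 to 23.1 CPM in slow-growing PNs, and 2.15 to 59.0 CPM in fast-growing PNs, with the highest PN value in 1179, and it was not called. *Ccr6*, a receptor of B cells and T helper subsets, stood at 0, 10.8, and 8.65 CPM in controls and 0 to 2.73 CPM in PNs (-3.11 ± 1.05 in all PNs, adjusted p = 0.0418). *Cxcr3*, the receptor of activated T cells for *Cxcl9*, *Cxcl10*, and *Cxcl11*, stood at 0.943, 11.4, and 7.50 CPM in controls, at most 0.228 CPM in slow-growing PNs, and 0.341 to 5.05 CPM in fast-growing PNs (-2.67 ± 0.89 in all PNs, adjusted p = 0.0401).

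The interferon-induced ligands of *Cxcr3* were not called together. *Cxcl9* measured 7.80, 78.8, and 37.8 CPM in controls, 0.607, 2.56, 2.76, 0.275, and 6.94 CPM in slow-growing PNs, and 1.16 to 43.4 CPM, with a median of 8.21, in fast-growing PNs. All slow-growing PNs lay below all controls, and *Cxcl9* fell by 4.05 ± 0.96 on the log2 scale in them (edgeR, adjusted p = 0.031). Such a separation held for 4 of 41 members in the lower direction, *Cxcl9*, *Ccl24*, *Ackr2*, and *Ackr3*, against 12% of all genes, and for *Cx3cl1* alone in the higher direction, against 11.6%. *Cxcr3* (lower) and *Cxcl15* (higher) separated too but did not pass the filter on low counts in this comparison. *Cxcl10* measured 6.00, 17.59, and 15.9 CPM in controls and 14.5 to 39.8 CPM in fast-growing PNs, and its log2 fold change there was 0.87 ± 0.41 (edgeR, adjusted p = 0.144, not called). *Cxcl11* stayed between 1.30 and 7.81 CPM in all libraries. *Cxcl9*, *Cxcl10*, and *Cxcl11* lie together on chromosome 5 within 44.1 kb.

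Lymphocyte markers were likewise lowest in DRG3 among controls. B cell markers summed to 10.4, 320, and 357 CPM in DRG3, DRG4, and DRG5 and to 13.8 to 164 CPM in PNs, and T and NK cell markers summed to 8.58, 432, and 251 CPM in controls and 11.8 to 290 CPM in PNs. In all PNs versus controls, 4 of 10 B cell genes and 3 of 10 T and NK cell genes were called lower, against 13.4% of all genes. Dendritic cell markers, also lowest in DRG3 among controls, summed to 24.3, 128, and 77.2 CPM in DRG3, DRG4, and DRG5 and to 26.4 to 143 CPM in PNs, and 0 of 6 were called by edgeR. With the mean log level of B, T, and NK cell markers as a covariate, chosen after seeing the data, the log2 fold changes in all PNs were -1.74 for *Ccl5* (edgeR, adjusted p = 0.239), -0.56 for *Ccl8* (0.847), -2.40 for *Ccl19* (0.279), -0.73 for *Cxcr5* (0.288), and -0.76 for *Cxcr3* (0.69), and those of *Ccr7*, *Ccr6*, and *Ccl22* were above 0 (0.779 to 0.945), so that all 8 calls ended. In the same fit of fast-growing PNs, *Ccl5* (-0.86, 0.456), *Ccl8* (0.67, 0.597), and *Cxcr5* (-0.75, 0.352) were not called and *Ccl19* was (-1.83, 0.0122), and in slow-growing PNs *Ccl5* (-2.58, 0.0829), *Ccl8* (-2.35, 0.536), *Ccl19* (-1.45, 0.706), and *Cxcl9* (0.275) were not called. With voom in limma, *Ccl8* (0.133), *Ccl5* (0.0501), *Ccr7* (0.442), *Ccr6* (0.38), and *Ccl22* (0.405) were not called in all PNs, nor *Ccl8* (0.411), *Ccl5* (0.219), *Ccl19* (0.11), and *Cxcr5* (0.0962) in fast-growing PNs, nor *Ccl8* (0.314), *Ccl5* (0.257), *Ccl19* (0.22), and *Cxcl9* (0.0551) in slow-growing PNs. With DRG4 and DRG5 left out, none of *Ccl19*, *Ccl5*, *Ccl8*, *Ccl22*, *Ccr7*, *Ccr6*, *Cxcr5*, and *Cxcr3* was called in any comparison with controls. In all PNs their fitted log2 fold changes then stood above 0, between 0.13 for *Cxcr3* and 6.75 for *Ccr7*. Those of *Ccr7* and *Ccr6* are fitted against 0 counts in DRG3 and are no measure of size. DRG3 was also the lowest control for *Ccl12*, *Cxcl16*, *Ccr2*, and the macrophage list. Leaving out DRG4 alone removed the calls in all PNs of *Ccl8* (adjusted p = 0.137), *Ccl22* (0.335), *Ccr7* (0.167), *Ccr6* (0.207), *Cxcr3* (0.235), and *Cxcr5* (0.0651), and leaving out DRG5 alone removed the same ones except *Ccl8*. The calls of *Ccr6* and *Cxcr3* in all PNs were also lost without any of 7 and 6 PNs (up to 0.063 and 0.0602). In slow-growing PNs, *Ccl19* and *Cxcl9* were not called without DRG4 (0.207 and 0.14) or DRG5 (0.135 and 0.0936), nor *Ccl8* (0.0879 and 0.0507), and *Ccl5* was not called without DRG4 (0.0746). *Ccl19*, *Cxcl9*, and *Ccl8* were also not called there without 1079 or 1202, nor *Ccl19* and *Cxcl9* without 1198A, nor *Ccl19* without 1206 (adjusted p between 0.0566 and 0.111), and *Ccl8* did not pass the filter on low counts without 1198A. In fast-growing PNs, *Ccl8* and *Cxcr5* each lost their call without DRG4 (0.262 and 0.117) or DRG5 (0.0536 and 0.123), and without any of 1053, 1071, 1214, and 1216 (up to 0.0636 and 0.074), and *Cxcr5* also without 1191 (0.0543).

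*Cxcl12* and its scavenger *Ackr3* were lower in PNs in another arrangement. DRG3 was the highest control for *Ackr3*, but the lowest for *Cxcl12*, below the PN 1206. *Cxcl12*, the stromal ligand of *Cxcr4*, measured 91.8, 143, and 221 CPM in controls, 75.9, 49.7, 72.9, 37.6, and 99.2 CPM in slow-growing PNs, and 38.1 to 54.7 CPM, with a median of 46.1, in fast-growing PNs. All PNs except 1206 lay below every control. *Cxcl12* fell by 1.48 ± 0.28 in all PNs and by 1.83 ± 0.25 in fast-growing PNs on the log2 scale (edgeR, Benjamini-Hochberg adjusted p = 0.0018 and 0.000569). In slow-growing PNs the log2 fold change was -1.24 ± 0.37 (0.0649, not called), and without DRG3 it was called (0.034). With DRG4 and DRG5 left out, the log2 fold change of *Cxcl12* was -0.745 in all PNs and -0.484 in slow-growing PNs. That of *Ackr3* in all PNs was then -1.927.

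**Figure D4:**
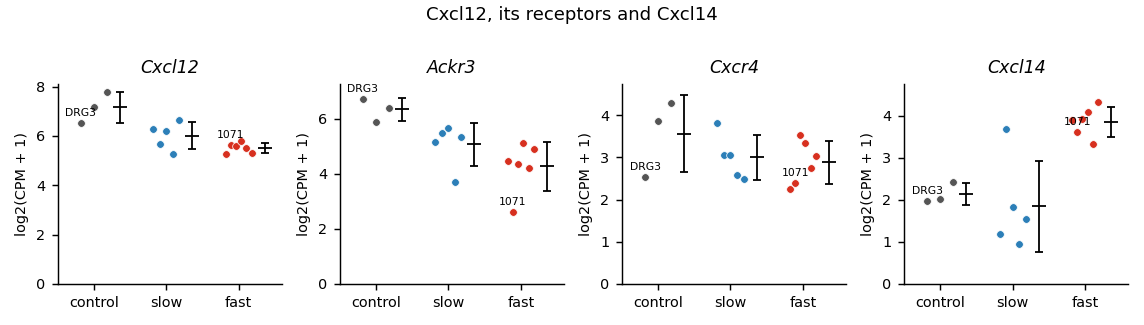
Levels of *Cxcl12*, its receptors *Ackr3* and *Cxcr4*, and *Cxcl14*, as log2(CPM + 1) on the y axis, in controls (n = 3), slow-growing PNs (n = 5), and fast-growing PNs (n = 6). Points are libraries, bars are the mean ± SD of the log values, and DRG3 and 1071 are labelled. *Ackr3* of every PN lies below every control.

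*Ackr3*, which internalizes *Cxcl12* and *Cxcl11*, measured 105, 58.7, and 84.0 CPM in controls, 34.5, 44.3, 49.7, 12.0, and 39.7 CPM in slow-growing PNs, and 5.12 to 34.0 CPM, with a median of 20.1, in fast-growing PNs. No PN reached a control, and it was the 1 member of 45 with this separation in the lower direction, against 9.13% of all genes. *Ackr3* fell by 1.59 ± 0.44 in all PNs and by 2.04 ± 0.45 in fast-growing PNs (edgeR, adjusted p = 0.0165 and 0.00744). The call in all PNs was lost without DRG3 (0.069) or DRG5 (0.0679). In slow-growing PNs the log2 fold change was -1.24 ± 0.40 (0.0818), and without 1203, the lowest slow-growing PN, it was called (0.0233). *Cxcr4*, the signaling receptor of *Cxcl12* on leukocytes and many progenitors, measured 4.80, 13.6, and 18.4 CPM in controls, 13.1, 7.37, 7.35, 4.94, and 4.63 CPM in slow-growing PNs, and 3.79 to 10.6 CPM in fast-growing PNs. DRG3 lay within the PN range, and *Cxcr4* was not called in all PNs (-0.81 ± 0.38, adjusted p = 0.135) unless DRG3 was left out (0.0323). Fat and skeletal muscle markers were lower in every PN than in every control (13 of 13 and 13 of 15 genes called lower in fast-growing PNs), and blood endothelial markers, at 453 to 596 CPM in controls, stood at 177 to 467 CPM in fast-growing PNs with 6 of 10 genes called lower. Of all genes, 16.7% were called lower in fast-growing PNs. With muscle and fat scores as covariates, the log2 fold changes in all PNs were -0.37 for *Cxcl12* and -0.72 for *Ackr3* (edgeR, adjusted p = 0.701 and 0.609), and in fast-growing PNs they were -0.86 and -3.49 (0.929 and 0.729). The part of blood endothelium was not tested.

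The other atypical receptors did not separate all PNs from controls. *Ackr1*, which venules use to carry chemokines across the vessel wall, measured 115, 63.1, and 39.4 CPM in controls, 58.4 to 119 CPM in slow-growing PNs, and 32.4 to 86.5 CPM in fast-growing PNs, with full overlap and no call. Exons of *Ackr1* overlap those of *Cadm3* on the same strand, and the part of *Cadm3* reads in these levels was not tested. *Ackr2*, which degrades inflammatory CC ligands, measured 2.40, 5.50, and 5.42 CPM in controls, 0.0759, 0.451, 1.33, 0.183, and 0.289 CPM in slow-growing PNs, and 0.137 to 5.34 CPM, with a median of 0.391, in fast-growing PNs. All slow-growing PNs lay below the controls, and *Ackr2* fell by 3.32 ± 0.72 in them (edgeR, adjusted p = 0.0236), a call lost without DRG4 (0.095), DRG5 (0.0988), or 1206 (0.0542). *Ackr4*, a scavenger of *Ccl19*, *Ccl21*, and *Ccl25*, measured 2.14, 6.14, and 7.82 CPM in controls and 0.471 to 4.84 CPM in PNs. It was called lower in all PNs (-1.47 ± 0.51, edgeR adjusted p = 0.0487), and leaving out any of 10 single libraries removed the call, DRG5 by the widest margin (0.276). With the lymphoid covariate neither *Ackr2* in slow-growing PNs (-2.89, 0.12) nor *Ackr4* in all PNs (-0.65, 0.547) was called. Of 6 lymphatic endothelial markers, 4 were called lower and 1 higher in all PNs (median log2 fold change -1.90), against 13.4% and 12.9% of all genes. In slow-growing PNs 3 were called lower (-1.64), against 7.13% of all genes. The sum of these markers, at 336 to 474 CPM in controls, stood at 242 to 1133 CPM in slow-growing PNs and 925 to 1633 CPM in fast-growing PNs. Their part in the *Ackr2* and *Ackr4* differences was not tested.

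*Ccl28*, a ligand of mucosal epithelium for *Ccr10* and *Ccr3*, was called higher in all PNs. It measured 3.26, 1.01, and 1.35 CPM in controls, 5.70, 2.25, 5.21, 9.34, and 5.88 CPM in slow-growing PNs, and 2.6 to 4.80 CPM in fast-growing PNs, and 9 of 11 PNs exceeded all controls. The log2 fold change was 1.31 ± 0.44 (edgeR, adjusted p = 0.0414), and 8 of the 14 fits without 1 library lost the call (up to 0.195, without DRG4), as did voom (0.068) and the lymphoid covariate (0.123). *Ccr10* ran from 0.366 to 3.34 CPM, highest in DRG5. *Cxcr2*, the main chemokine receptor of neutrophils, overlapped across groups, at 23.9, 41.3, and 48.0 CPM in controls, 28.0 to 35 CPM in slow-growing PNs, and 24.9 to 33.6 CPM in fast-growing PNs. The log2 fold change of *Cxcr2* in all PNs was -0.34 ± 0.17 (edgeR, adjusted p = 0.146), and it was called lower when DRG3 was left out (0.00802). Neutrophil markers summed to 242, 70.0, and 1709 CPM in controls and 23.1 to 291 CPM in PNs. Of 9 such genes, 7 were called lower in all PNs, against 13.4% of all genes.

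Between growth classes, the called member lay in a CC ligand cluster of chromosome 11. *Ccl2*, *Ccl7*, *Ccl11*, *Ccl12*, *Ccl8*, and *Ccl1* lie within 270 kb at chr11:82035571-82305690 (GRCm38), and all 5 of them that could be tested had positive log2 fold changes in fast- versus slow-growing PNs. A second cluster at chr11:83525778-83664683 holds *Ccl5*, *Ccl9*, *Ccl6*, *Ccl3*, and *Ccl4*, with 3 of 3 tested members positive. Over all 36 tested members, 23 had positive and 13 negative log2 fold changes, with a median of 0.94 against -0.03 over all genes. The other clusters were mixed. Those of *Ccl22* on chromosome 8 and of *Cxcl15* on chromosome 5 had 2 of 2 tested members positive. On chromosome 5, *Cxcl9* and *Cxcl10* were positive and *Cxcl11* was negative. The receptor cluster on chromosome 9 had 4 positive and 1 negative, and *Ccl19* on chromosome 4 was negative. *Ccl12*, a monocyte attractant that signals through *Ccr2*, was the member called. It measured 0.943, 11.3, and 8.65 CPM in controls, 0.456, 3.68, 0.715, 0.916, and 1.73 CPM in slow-growing PNs, and 3.41 to 21.4 CPM, with a median of 14.1, in fast-growing PNs. All fast-growing PNs except 1071 exceeded all slow-growing PNs, of which 1198A was the highest. The log2 fold change was 3.22 ± 0.60 (edgeR, Benjamini-Hochberg adjusted p = 0.0449), and the call was lost in 8 of the 11 fits without 1 library (adjusted p up to 0.129, without 1202), with voom (0.0656), and with muscle and fat (0.108) or lymphoid (0.0519) covariates. For none of the 36 tested members did the growth classes separate in full, against 3.04% of all genes tested (2.13% higher and 0.905% lower in fast-growing PNs). *Cxcr3*, which the filter on low counts kept out of this comparison, did separate, at 0.0916 to 0.228 CPM in slow-growing PNs and 0.341 to 5.05 CPM in fast-growing PNs.

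The next lowest p-values belonged to members that were not called. *Cxcl16*, a ligand for *Cxcr6* that macrophages display on their surface, measured 4.48, 17.2, 5.92, 4.30, and 6.94 CPM in slow-growing PNs and 10.6 to 52.3 CPM, with a median of 30.7, in fast-growing PNs (log2 fold change 1.96 ± 0.46, edgeR adjusted p = 0.0569). Only 1198A lay within the range of the fast-growing PNs, and *Cxcr6* ranged from 1.28 to 6.80 CPM over PNs. For *Cx3cr1* the log2 fold change was 2.19 ± 0.51 (0.0569). *Ccl2*, *Ccl7*, *Ccl8*, *Ccl9*, *Ccl11*, *Ccl22*, *Ccr2*, *Cxcl14*, and *Cx3cl1* had log2 fold changes between 0.86 (*Cx3cl1*) and 2.55 (*Ccl8*) with adjusted p between 0.0835 (*Cx3cl1*) and 0.153 (*Ccl11*) in the same test. *Cxcl12* stood at -0.57 ± 0.22 (0.178) and *Cxcl11* at -0.98 ± 0.39 (0.189). Over ligands the median log2 fold change was 1.15 for 23 tested, and over receptors it was -0.09 for 13 tested.

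These values depended on single libraries. Without 1198A, calls over all genes went from 196 of 15465 to 1194 of 15611 (7.65%), and 13 of 40 tested members were called higher in fast-growing PNs, among them *Cxcl14* (log2 fold change 3.05, edgeR adjusted p = 0.00194), *Cx3cr1* (2.92, 0.00388), *Ccl12* (0.00547), *Cxcl16* (2.49, 0.00781), *Ccl11* (2.03, 0.00989), *Ccl7* (2.24, 0.0207), *Ccl8* (3.46, 0.0253), *Ccr2* (2.68, 0.0299), *Ccl2* (2.75, 0.0342), and *Cx3cl1* (1.02, 0.0379). Without 1071, *Cxcl16* (0.0366), *Cx3cr1* (0.0497), and *Ccl12* were called, and calls over all genes stood at 372 of 15299 (2.43%). Without 1191, the log2 fold changes of *Ccl2* and *Ccr2* were 1.49 and 1.33 (0.189 and 0.265), against 2.17 and 1.94 with it, and without 1179 that of *Cxcl9* was 1.41 (0.443), against 2.33. The label puts 1198A among the slow-growing PNs, and it was kept there. Macrophage markers in 1198A, at 638 CPM, and fibroblast markers, at 11559 CPM, were also within the range of the fast-growing PNs, and the part of those cells was not tested.

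*Ccr9*, the receptor of T cell precursors for the thymic and intestinal ligand *Ccl25*, was set by single libraries. It measured 5.06, 13.5, and 6.67 CPM in controls, 84.7, 5.04, 8.48, 1.28, and 6.27 CPM in slow-growing PNs, and 1.84 to 46.0 CPM, with a median of 3.66, in fast-growing PNs. Only 1079 and 1191 stood above DRG4. A list of thymocyte transcripts, chosen after these values were seen, summed to 632 CPM in 1079 and 323 CPM in 1191, against 15.3 to 129 CPM in the other 12 libraries. *Ccl25* ran from 1.06 to 4.09 CPM and did not follow *Ccr9*. With 1079 and 1191 left out, 14 members were called in all PNs, 17 in fast-growing PNs against controls, 2 in slow-growing PNs, and 0 between growth classes, against 25.4%, 32.1%, 6.19%, and 0.0129% of all genes.

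**Figure D5:**
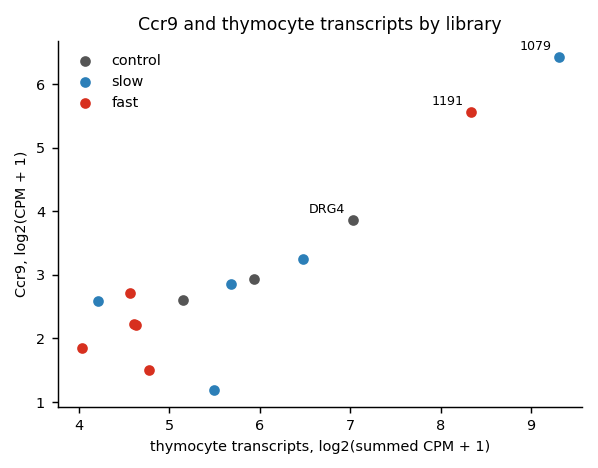
*Ccr9* (y axis) against summed thymocyte transcripts (x axis), both as log2(CPM + 1), for the 14 libraries, colored by group. The PNs 1079 and 1191 and the control DRG4 are labelled, and 1079 and 1191 lie apart at the upper right.

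Genes that carry the chemokine signal inside the cell, or that act like chemokines under other names, were read from lists. Of 7 tested G protein subunits, 1 was called higher and 1 lower in fast-growing PNs versus controls: *Gnai3*, an inhibitory alpha subunit, rose by 0.55 and *Gng5*, a gamma subunit, fell by 1.42 on the log2 scale (edgeR, adjusted p = 0.00544 and 0.000522). Of 9 arrestins, receptor kinases, and regulators of G protein signaling, 2 were called higher, *Rgs16* (2.69, 0.000275) and *Arrb1* (0.83, 0.00405), and *Rgs2* was called lower (-1.85, 0.00372). Of 12 effectors of migration, 2 were called higher, the adhesion adaptor *Pxn* (1.37, 9e-04) and the GTPase *Rac1* (0.46, 0.027). The call of *Rac1* was lost without DRG4 (0.1) or DRG5 (0.0818). Of 10 chemoattractants and receptors that the symbol rule does not reach, 4 were called lower, the platelet chemokines *Ppbp* (-5.03, 0.00135) and *Pf4* (-2.50, 0.00306), *Mif* (-1.65, 0.00334), and the dendritic cell receptor *Xcr1* (-1.76, 0.0104), the last of which was not called without DRG4 (0.0706). With the lymphoid covariate *Xcr1* (0.0888) and *Rac1* (0.0776) were not called. In the same order of lists, all PNs versus controls gave 2 higher and 1 lower, 1 and 1, 2 and 1, and 0 and 4, slow-growing PNs versus controls gave 0 higher and 1 lower, 0 and 1, 0 and 0, and 0 and 2, and between growth classes no gene of the 4 lists was called. The shares of all genes called in these comparisons, given above, apply to these lists too.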

How the data were processed

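Bulk RNA-seq libraries of 3 control ganglia with nerve, 5 slow-growing PNs, and 6 fast-growing PNs were analyzed, grouped by their labels. The authors amplified RNA from frozen tissue (Ovation RNA-Seq System v2), and the submitters' processing notes name CASAVA 1.4, FastQC 0.11.0, TopHat2 2.0.9 with mm10, featureCounts 1.5.2, and edgeR 3.16.5. The authors deposited whole-number counts per gene, not normalized, which were used here. Their deposited log2 table, normalized by TMM, was not used.

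The members, lists, and tests were chosen with earlier results of these data known. Counts were tested in edgeR 4.0.16 (R 4.3.3) with filterByExpr, TMM factors, the quasi-likelihood test, and Benjamini-Hochberg adjustment over all genes tested, with only the libraries compared in each fit and no covariate, since neither sex nor batch is given per library. Levels are TMM-scaled CPM, and CPM per kb uses the longest annotated transcript. Depth was 9596773 to 17594164 counts. Amplified reads are not independent molecules, so the floor of 3 counts covers counting error only. Gene symbols matched the annotation for 22750 genes, by an older symbol for 934, and not for 378, and 59 members had coordinates. Promoter windows (RefSeq, GRCm38.p6) matched 44 of the 60 members.

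Members were named if called in any comparison, if they are a main receptor or ligand of a called member, if among the 5 highest per kb, or if the study names them. List genes are given as counts, with up to 4 named per list, lowest p first. *Ccl3*, *Ccl4*, *Ccl6*, *Ccl24*, *Ccl25*, and *Cxcl5*, members of the low-count group, the myeloid and lymphoid groupings, and the thymocyte list were taken up after their values were seen. Alternatives were DESeq2 1.42.0, voom in limma 3.58.1, upper-quartile factors, no filter, 1 fit for all groups, marker and length or GC corrections, and leaving out libraries. On simulated counts with 200 genes changed by a log2 fold of 2, the test recovered 69.5% of them in all PNs versus controls, 61.5% in slow-growing PNs, 76.5% in fast-growing PNs, and 76% between growth classes (16101, 15433, 15770, and 15287 genes). In the same order, 6.08%, 4.65%, 3.77%, and 6.17% of the calls were false. Simulated counts were drawn independently for each gene, without differences in tissue composition between libraries. These rates therefore need not hold for the calls on the real counts. Plots used Python 3.11.15 and matplotlib 3.10.9. 1 member enters the counts and medians but is not reported here by name.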

Additional observations from a re-analysis of the deposited data

Results flagged for a closer look

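In each PN group, every tested member was examined on the log2(CPM + 1) scale for a library whose gap to its nearest neighbor, divided by the range of the group, exceeded Dixon's 95% critical value. Of 90 groups of libraries (45 members), 9 held such a library (10%), where chance gives about 1 in 20, and the 3 controls were too few to examine. On the CPM scale, tried after seeing the data, 23 did (25.6%), 6 of them the same, and the others included *Ccl11* in 1198A (245 CPM), *Ccl19* in 1203 (9.43 CPM), and *Ccr9* in 1079 (84.7 CPM). The following are those on the log2 scale. *Ackr3* stood apart at 12.0 CPM in the slow-growing PN 1203 and at 5.12 CPM in the fast-growing PN 1071, in both cases below the others, and *Ccl12* did so at 3.41 CPM in 1071. *Ccl8* stood apart at 2.03 CPM in 1198A, above the other slow-growing PNs. In 1191, the library with few neuron transcripts, *Ccl6* at 84.7 CPM, *Ccl24*, a ligand of eosinophils, at 3.02 CPM, and *Ccr9* at 46.0 CPM were above the other fast-growing PNs. In 1179, whose B cell markers were the highest among fast-growing PNs, *Cxcr5* at 4.24 CPM and *Ackr2* at 5.34 CPM were.

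The growth classes differed by test for *Ccl12*, with a log2 fold change of 3.22 in fast- versus slow-growing PNs (edgeR, Benjamini-Hochberg adjusted p = 0.0449). 5 of 6 fast-growing PNs were above all slow-growing PNs.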

How the results depend on the processing

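Numbers of members called in all PNs, slow-growing PNs, and fast-growing PNs versus controls and between growth classes were 15, 5, 14, and 1. Slow-growing PNs gave 12 with DESeq2, 12 with 1 fit for all groups, and 1 with voom (22.5%, 20.1%, and 11.7% of all genes, against 11.3%), and the growth classes gave 12, 2, and 0 (10.3%, 2.6%, and 0.22%, against 1.27%). At an unadjusted p under 0.05, voom gave 18 between growth classes (20.3% of all genes). With muscle and fat scores as covariates the numbers were 1, 0, 0, and 0 (9, 2, 4, and 17 unadjusted), against 1.75%, 0%, 0%, and 0% of all genes (16.9%, 4.62%, 6.7%, and 10.6% unadjusted). The following alternatives were chosen after seeing the data. A lymphoid marker covariate gave 3, 0, 18 (15 higher and 3 lower, against 8 and 6), and 0 (12, 5, 20, and 17 unadjusted), against 14.8%, 4.37%, 26.8%, and 0.504% of all genes (29.3%, 18.9%, 39.6%, and 21.7% unadjusted). Without DRG4 and DRG5 they were 0, 0, and 3, and without 1079 and 1191 they were 14, 2, 17, and 0 (16 unadjusted between growth classes, against 15.8% of all genes). Leaving out 1 library gave 4 to 16, 1 to 15, 8 to 20, and 0 to 13. The other settings stayed within 1.5 times the numbers given first, although single calls ended: in all PNs *Ackr4* and *Cx3cr1* with upper-quartile factors (adjusted p = 0.0502 and 0.0567), no filter (0.0581 and 0.0516), and the length and GC correction (0.0644 and 0.0717), *Ackr4* with 1 fit for all groups (0.0503), and *Ccl28*, *Ccr6*, and *Cxcr3* with the length and GC correction (0.091, 0.068, and 0.0747), in fast-growing PNs *Ccl8* and *Rac1* with that correction (0.0652 and 0.0859) and *Ccr1* with 1 fit for all groups (0.078), and in slow-growing PNs *Ccl19* with that correction (0.101). DESeq2 kept 13 of the 14 calls in fast-growing PNs. Without 1079 and 1191, *Ccl28*, *Cx3cr1*, and *Cxcr3* were not called in all PNs (edgeR, adjusted p = 0.063, 0.0518, and 0.0682). Calls that ended with voom are given with the members, and in no fit without 1 library did a fold change followed here turn its sign.

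Signs turned as follows, and the cause was not tested. With muscle and fat covariates, log2 fold changes were -0.054 for *Cx3cl1* and -1.001 for *Cx3cr1* in all PNs, 0.12 for *Ackr3* in slow-growing PNs, and -0.12 for *Cx3cl1*, -0.054 for *Pxn*, and 4.03 for *Ppbp* in fast-growing PNs. With the lymphoid covariate, they were 0.70 for *Ccr7*, 0.44 for *Ccr6*, 0.21 for *Ccl22*, and 0.14 for *Cxcr4* in all PNs and 0.67 for *Ccl8* in fast-growing PNs. Without DRG4 and DRG5, they were 2.15 for *Ccl8*, 0.57 for *Ccl5*, 6.75 for *Ccr7*, 6.31 for *Ccr6*, 0.17 for *Ccl19*, 3.28 for *Ccl22*, 0.38 for *Cxcr5*, 0.13 for *Cxcr3*, 0.55 for *Cxcr4*, and 0.32 for *Cxcr2* in all PNs, 0.24 for *Ccl8* and 0.64 for *Ccl19* in slow-growing PNs, and 2.83 for *Ccl8*, 1.06 for *Ccl5*, and 0.31 for *Cxcr5* in fast-growing PNs. Those of *Ccr7* and *Ccr6* are fitted against 0 counts in DRG3 and are no measure of size.

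No paired analysis was possible because the numbers in the control labels (DRG3 to DRG5) and in the PN labels (such as 1079) pair no samples. Depth limits members near the floor of 0.167 to 0.313 CPM, such as *Cxcl15*, and the 3 controls limit every comparison with them.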
